A study of Homo sapiens with 6 samples.

Results

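The genes described here encode the vacuolar proton pump (V-ATPase) and the enzymes and membrane proteins of the lysosome. They are 43 genes, chosen by name from a list of V-ATPase subunits, cathepsins, lysosomal hydrolases and lysosomal membrane proteins, among the 58870 genes of the count table. RNA sequencing was performed on the established human melanoma line WM164, in 2 groups of 3 libraries. One group carried GFP as the control and the other carried T-MGM, a single polypeptide in which the melanocyte form of MITF is joined through a linker to MAFG, so that both transcription factors are held together as a dimer. The dimer was cloned in a lentiviral vector with the EF1α promoter and a blasticidin marker, the same cell line served both groups, and the values stand for 1 cell line only. The labels do not say whether the replicates were separate cultures, and p-values therefore measure only the spread between these libraries, which may be technical.

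The V-ATPase pumps protons into endosomes, lysosomes and melanosomes: its membrane sector, V0, carries the protons, and its cytosolic sector, V1, hydrolyses ATP to drive the rotation. The acid made in this way activates the hydrolases that break down proteins, glycans and lipids, and a shortage of a single one of them can cause a lysosomal storage disease. Many of these genes carry in their promoter an E-box of the type bound by MITF and its relatives TFEB and TFE3, and melanosomes, the pigment organelles of melanocytes, are relatives of the lysosome. Cathepsins that are secreted from tumour cells can also cut the extracellular matrix.

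Total counts were 35057239 to 38738065 in the GFP controls and 44577774 to 59250663 in the T-MGM-labelled libraries, and the genes had correlations (Pearson's r of log2 normalized counts over 12654 genes) of 0.991 to 0.994 within groups and 0.971 to 0.974 between them. The genes of the construct differed little between the groups. MAFG had 2535, 2397 and 2442 normalized counts in the GFP controls and 2396, 2351 and 2327 in libraries with the T-MGM label (log2 fold change -0.06, adjusted p = 0.236), and MITF had 19111, 19169 and 19204 against 20447, 20121 and 20240 (0.08, adjusted p = 4.8e-07). A rise of the construct's own genes thus does not serve as a check of the labels, and every direction given here is that of the libraries as labelled. All 7 melanocyte markers were expressed in every library, but not at the same level in both groups: PMEL (0.05), MITF and SOX10 (0.11) were higher, while S100B (-0.21), TYR (-0.35), MLANA (-0.68) and DCT (-2.49, from 11358 to 11601 normalized counts down to 1968 to 2144) were lower with the T-MGM label. The epithelial markers EPCAM, KRT5, KRT14 and CDH1 had at most 4.56 normalized counts in any library. The summed level of 5 fibroblast markers (PDGFRA, LUM, DCN, COL1A1 and COL1A2) was 387 to 397 normalized counts in the GFP controls and 719 to 771 in libraries with the T-MGM label, most of it LUM, while COL1A2 had at most 5.41 in any library. The summed level of 6 leukocyte markers was 114 to 157 against 79.7 to 90.7, most of it FCER1G, with TYROBP at 0 in every library. The part of these markers in the results was not tested, and in bulk RNA a change in the number of cells of a kind and a change in RNA per cell cannot be told apart.

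Lysosomal genes moved in both directions and mostly by small amounts. Of the 43 genes, 42 were tested and CTSS had too few counts. At an adjusted p of 0.05 or less (DESeq2 over all genes), 18 were higher and 13 lower in the T-MGM-labelled libraries, 11 did not pass, and 1, the collagen-degrading protease CTSK, was over 2-fold. On the log2(TPM + 1) scale, where the median gene was itself lower, 6 were higher and 20 lower (limma). Among all 19135 genes tested, 38.4% passed, 19.2% higher and 19.2% lower, and 4.63% passed with a change over 2-fold. Because the members are abundant and abundant genes pass more readily, genes that average 500 normalized counts or more are the closer background: 63.5% of these 8616 genes passed, 28.4% higher and 35.1% lower, and 0.859% were over 2-fold. Of the 38 members at that level, 28 passed, 16 higher and 12 lower.

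The median log2 fold change of the tested members was 0.04, beside 0.00 over all tested genes and -0.03 over those with at least 500 counts. The median size of the change, without its sign, was 0.16 for the members and 0.15 for genes of at least 500 counts. The members' share of all counts was 0.484 to 0.489% in the GFP controls and 0.477 to 0.481% in the T-MGM-labelled libraries. Counts leave gene length aside, so levels were compared between genes in TPM, the share of transcripts corrected for gene length, which the authors estimated separately. On that scale the members summed to 2626, 2661 and 2638 TPM in the GFP controls and 2480, 2508 and 2448 in libraries with the T-MGM label. The groups did not overlap in that sum. The median gene, however, was itself lower by 0.13 on the log2(TPM + 1) scale and the members' median by 0.08, while mitochondrial genes took 10.7 to 10.9% of counts in the GFP controls and 11.7 to 12.0% in the others.

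**Figure D1:**
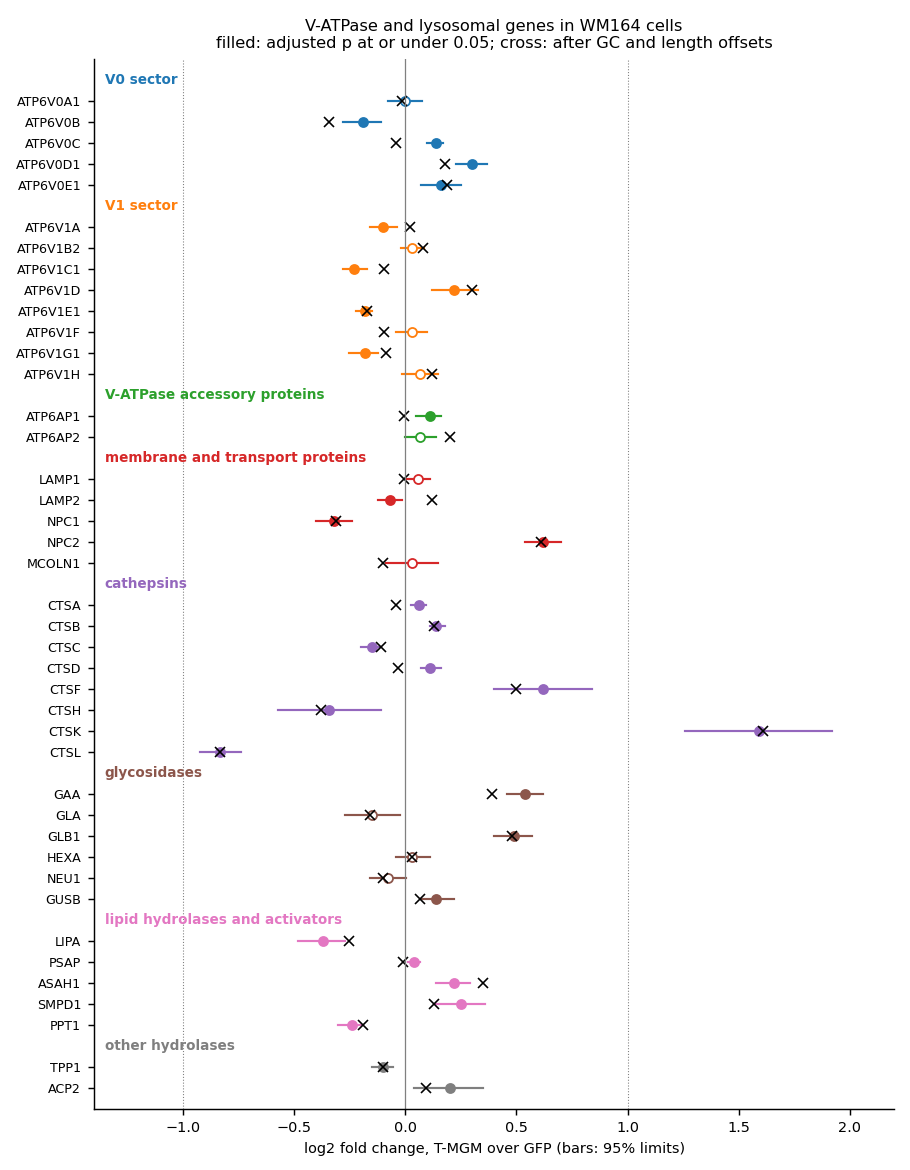
Log2 fold change (T-MGM over GFP, x axis) of the 41 members that average 50 normalized counts or more, grouped by role on the y axis. Points are DESeq2 estimates with 95% limits, filled where the adjusted p is at or under 0.05, and crosses are estimates after GC and length offsets. CTSK at 1.59 is the only member beyond 1 in either direction, and CTSL at -0.83 is the lowest.

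Base composition moved with the changes. Across the 41 members with at least 50 normalized counts, Spearman's rho between log2 fold change and transcript GC content was 0.320, and across 12613 genes of that level it was 0.378, as a description over genes that share the same 6 libraries. With an offset for GC content and length in every library, rho over the members was -0.0314, their median log2 fold change -0.01, and 14 members were higher and 14 lower. Of the 18 higher members 10 kept their call and 1, CTSA, became lower, and of the 13 lower members 11 kept theirs and 1, LAMP2, became higher. For the genes named below, values with the offset stand beside the counts where they end a call or turn the direction of a gene that passed. LAMP1, MCOLN1 and ATP6V0A1, which did not pass, were at -0.007, -0.10 and -0.015 with the offset.

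The promoter letters of these genes were read because MITF binds E-boxes. RefSeq windows (GRCh38.p14, 250 bases before to 50 after the start site) were matched for 31 of the 43 members. The motif TCACGTG, searched on both strands, with matches that share bases counted once, lay in 10 of these 31 windows (32.3%), beside 4.49% of 27305 genes with a window, 7.51% of the 9380 with at least 50 normalized counts and 20.6% of 68 other lysosomal genes. The 10 genes are shown here, since they all hold these letters and went in different directions. Each line gives 30 bases, 5′ to 3′ on the strand of the gene, with the motif or its reverse complement in capitals.
GAA, chr17:80101493-80101522, plus strand: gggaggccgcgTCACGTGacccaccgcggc
CTSF, chr11:66568711-66568740, minus strand: catataacaagCACGTGAtagaggtcagtg
ATP6V0D1, chr16:67481199-67481228, minus strand: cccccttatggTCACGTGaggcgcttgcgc
CTSD, chr11:1763956-1763985, minus strand: ccggccgcgccCACGTGAccggtccgggtg
CTSA, chr20:45891281-45891310, plus strand: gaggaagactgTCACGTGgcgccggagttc
LAMP1, chr13:113297199-113297228, plus strand: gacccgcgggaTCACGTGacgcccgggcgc
MCOLN1, chr19:7522571-7522600, plus strand: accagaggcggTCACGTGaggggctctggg
NEU1, chr6:31862930-31862959, minus strand: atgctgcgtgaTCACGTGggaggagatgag
ATP6V1G1, chr9:114587699-114587728, plus strand: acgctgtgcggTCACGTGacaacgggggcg
ATP6V0B, chr1:43974891-43974920, plus strand: ccggcgtggggTCACGTGgtaccggcgcat

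LAMP1 held 6 copies within its window, GAA, MCOLN1, CTSA and ATP6V0B held 2, and the other 5 genes held 1. LAMP1, with the most copies, had a log2 fold change of 0.06 that did not pass (adjusted p = 0.0605), and ATP6V0B with 2 copies fell by 0.19 on the log2 scale while GAA with 2 was higher by 0.54. Of the 10 genes, 5 were higher, 2 lower and 3 did not pass, with a median log2 fold change of 0.06 (-0.04 with the GC offset). Of the 20 genes of at least 50 normalized counts whose window lacked these letters, 8 were higher, 8 lower and 4 did not pass, with a median of 0.01 (-0.07 with the GC offset). Over all 9380 genes of that level with a window, the median was -0.02 with these letters and -0.02 without. Among all genes of at least 500 counts, 28.4% were higher and 35.1% lower.

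The related letters TCATGTG, the core of the M-box in pigmentation genes, lay in 4 of the 31 windows (12.9%, beside 3.59% of all windows), and the log2 fold changes of these genes in the counts differed in sign. The windows of ATP6V0C (log2 fold change 0.14), PPT1 (-0.24) and TPP1 (-0.10) are shown in the same form, and the fourth gene was CTSA (0.06). All 4 were below 0 with the GC offset, ATP6V0C and CTSA at -0.04, PPT1 at -0.19 and TPP1 at -0.10.
ATP6V0C, chr16:2513912-2513941, plus strand: cggggcccaggTCATGTGacgcggccgcgg
PPT1, chr1:40097238-40097267, minus strand: cgcgcccgcggTCATGTGacacagcgaaga
TPP1, chr11:6619425-6619454, minus strand: gaatatagagcTCATGTGatccgtcacatg

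Small Maf proteins such as MAFG bind Maf recognition elements, with the core TGCTGA, and, with partners, sites that hold the AP-1 letters TGACTCA. The first of these lay in 3 of the 31 windows (9.68%, beside 20.5% of all windows), those of ATP6V0A1, LIPA and PPT1. TGACTCA was found in 0 of 31 windows, beside 6.05% of all windows, which says only that these letters are not in those windows.

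V-ATPase genes changed in both directions. Of its 15 genes (5 of V0, 8 of V1 and 2 accessory), 5 were higher, 5 lower and 5 did not pass, none over 2-fold, with a median log2 fold change of 0.03. All 15 average 500 normalized counts or more, and their shares are close to the 28.4% higher and 35.1% lower among genes of that level. In V0, 3 of 5 genes were higher and 1 was lower (median 0.14). In V1, 1 of 8 was higher and 4 were lower (median -0.03). With the GC offset V0 held 2 higher and 1 lower gene, and V1 held 3 higher and 4 lower.

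Positions are given on GRCh38 from GENCODE v44. Among the V0 genes, ATP6V0D1 (ENSG00000159720.12, chromosome 16, 67438014 to 67481181, minus strand), whose product links the rotor to the proton-carrying ring, had 2807, 2749 and 2609 normalized counts in GFP replicates 1 to 3, against 3313, 3395 and 3335 in T-MGM replicates 1 to 3. All 3 T-MGM-labelled libraries were above all 3 GFP libraries, with a log2 fold change of 0.30 (SE 0.0355, adjusted p = 4.93e-16), which was 0.18 with the GC offset. ATP6V0B (ENSG00000117410.14, chromosome 1, 43974487 to 43978295, plus strand), a proteolipid of that ring, had 2162, 2348 and 2296 normalized counts in GFP replicates 1 to 3, against 1957, 2007 and 1995 in T-MGM replicates 1 to 3. It was lower without overlap, with a log2 fold change of -0.19 (SE 0.0421, adjusted p = 2.42e-05), and lower still with the GC offset (-0.34).

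ATP6V0C, the main proteolipid of the ring and the most abundant member on the TPM scale, had 16846, 16390 and 16459 normalized counts in GFP replicates 1 to 3, against 17939, 18325 and 18328 in T-MGM replicates 1 to 3. The groups did not overlap and its log2 fold change was 0.14 (SE 0.0170, adjusted p = 1.61e-14), but it was -0.04 with the GC offset (adjusted p = 0.0548), and its TPM was 362 ± 3.34 against 359 ± 6.06 (SD of 3 libraries). ATP6V0E1, the small e subunit, was higher by 0.16 (adjusted p = 0.00115), which was 0.11 without T-MGM replicate 3 (adjusted p = 0.053). ATP6V0A1, the a subunit that lines the proton path, had a log2 fold change of 0.00 with 95% limits of -0.08 and 0.08, and its groups overlapped. Pseudogene copies of ATP6V0C, ATP6V0E1, ATP6V1E1, ATP6V1G1, GUSB and CTSL are annotated, and counts of uniquely aligned reads can leave out reads shared with them.

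In the V1 sector, ATP6V1E1 (ENSG00000131100.13, chromosome 22, 17592136 to 17628749, minus strand), a subunit of the peripheral stalks, had 11993, 12226 and 12278 normalized counts in GFP replicates 1 to 3, against 10655, 10758 and 10742 in T-MGM replicates 1 to 3. The groups were apart, with a log2 fold change of -0.18 (SE 0.0187, adjusted p = 2.15e-21), and its TPM fell from 217 ± 4.26 to 173 ± 2.83 (SD of 3 libraries). ATP6V1G1, its partner in the stalks, had 3409, 3417 and 3528 normalized counts in GFP replicates 1 to 3, against 2935, 3062 and 3118 in T-MGM replicates 1 to 3, and was lower by the same log2 amount, -0.18 (adjusted p = 5.78e-07; -0.08 with the GC offset, adjusted p = 0.0438).

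ATP6V1C1, a further V1 subunit, fell by 0.23 on the log2 scale (adjusted p = 3.00e-16), and by 0.09 with the GC offset (adjusted p = 0.0013). ATP6V1A, the catalytic subunit, had 4197, 4165 and 4179 normalized counts in GFP replicates 1 to 3, against 4041, 3784 and 3899 in T-MGM replicates 1 to 3, and fell by 0.10 on the log2 scale (adjusted p = 0.00563). That call was lost without T-MGM replicate 2 (-0.07, adjusted p = 0.0738), and with the GC offset the value was 0.02 (adjusted p = 0.656).

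ATP6V1D (ENSG00000100554.12, chromosome 14, 67294371 to 67360265, minus strand), the central shaft, was the V1 gene that passed as higher in the counts: it had 1192, 1138 and 1142 normalized counts in GFP replicates 1 to 3, against 1311, 1342 and 1395 in T-MGM replicates 1 to 3. These groups did not overlap either, with a log2 fold change of 0.22 (SE 0.0540, adjusted p = 0.000164). Part of ATP6V1D lies opposite PALS1, and since the labels and the methods name different library kits, one of them strand-specific and one not, reads from the opposite strand cannot be set aside for this and other overlapping genes. ATP6V1B2, ATP6V1F and ATP6V1H, the nucleotide-binding, shaft and regulatory subunits, had log2 fold changes of 0.03, 0.03 and 0.07 with overlapping groups (adjusted p = 0.381, 0.588 and 0.215). With the GC offset they passed, ATP6V1B2 at 0.08 and ATP6V1H at 0.12 as higher and ATP6V1F at -0.09 as lower (adjusted p = 0.00949, 0.018 and 0.0258).

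Of the accessory proteins, ATP6AP1 (ENSG00000071553.17, chromosome X, 154428633 to 154436516, plus strand), which helps the pump to assemble, had 4304, 4196 and 4184 normalized counts in GFP replicates 1 to 3, against 4465, 4605 and 4589 in T-MGM replicates 1 to 3. It was higher by 0.11 (SE 0.0288, adjusted p = 0.000766), and 0.00 with the GC offset (adjusted p = 0.964). ATP6AP2, the prorenin receptor, had a log2 fold change of 0.07 with overlapping groups (adjusted p = 0.118), and 0.20 with the GC offset (adjusted p = 6.56e-08). On the TPM scale the 8 V1 genes summed to 505 to 514 in the GFP controls and 425 to 439 in the T-MGM-labelled libraries, and the 5 V0 genes to 530 to 534 against 514 to 526. Within the V1 sum, ATP6V1E1 alone went from a mean of 217 to 173 TPM. The median gene was itself at -0.13 on the log2(TPM + 1) scale.

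Several subunits are encoded by more than 1 gene, and the member genes held nearly all the TPM of most of them. ATP6V0D1, ATP6V1B2, ATP6V1C1, ATP6V1E1 and ATP6V1G1 held from 96.3 to 99.7% of their subunit's summed TPM in the GFP controls and from 96.4 to 99.6% in the T-MGM-labelled libraries. Subunits a and e were mixed. ATP6V0A1 held 67.6 ± 2.60% of subunit a in GFP and 65.9 ± 3.28% with T-MGM (SD of 3 libraries), ATP6V0A2 held 24.5 ± 2.10% and 23.9 ± 1.18%, and TCIRG1, the osteoclast form, held 7.10 ± 1.45% and 8.27 ± 1.94%. ATP6V0E1 held 62.4 ± 3.26% of subunit e in GFP and 62.9 ± 1.57% with T-MGM, with overlapping groups, the rest being ATP6V0E2.

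**Figure D2:**
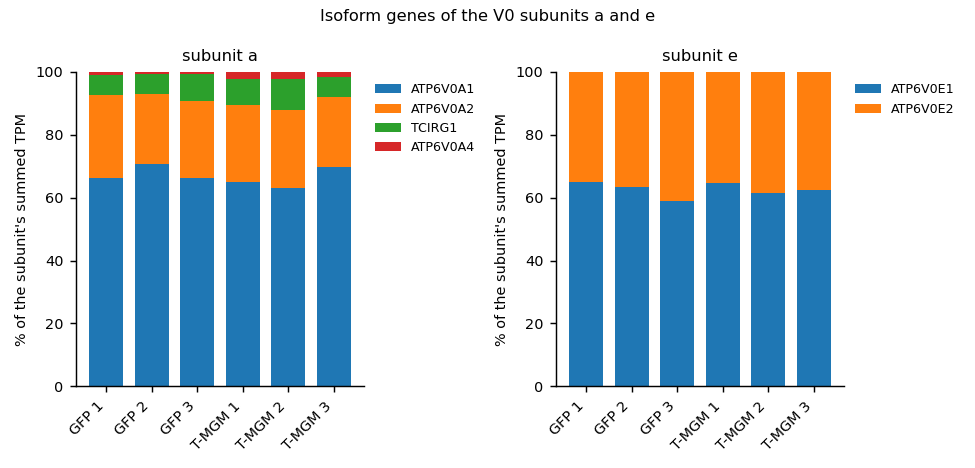
Share of summed TPM (y axis, percent) held by each gene that encodes subunit a (left) or subunit e (right) of V0, in each of the 6 libraries (x axis). ATP6V0A1 and ATP6V0E1 hold the largest share in every library, and the topmost segment of subunit a, ATP6V0A4, is between 0.718 and 1.07% in GFP controls and between 1.70 and 2.13% in libraries with the T-MGM label.

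Within subunit a, the least abundant isoform moved most. ATP6V0A4, a form of subunit a known from kidney, had 31.2, 29.2 and 21.7 normalized counts in GFP replicates 1 to 3, against 71.2, 74.1 and 59.0 in T-MGM replicates 1 to 3, with a log2 fold change of 1.31 (SE 0.306, adjusted p = 8.33e-05). It made up 0.868 ± 0.184% of subunit a in GFP and 1.95 ± 0.226% with T-MGM (SD of 3 libraries). Of 10 isoform genes outside the member list that were tested, 2 were higher (ATP6V0A4 and TCIRG1, 0.37), 1 was lower (ATP6V0A2, -0.13) and 7 did not pass. The share of these genes that passed was below the 38.4% of all tested genes, of which 19.2% were higher and 19.2% lower. With the GC offset neither TCIRG1 (0.22, adjusted p = 0.246) nor ATP6V0A2 (-0.07, adjusted p = 0.333) passed. Of 11 further tested genes that assemble, regulate or associate with the pump, 0 were higher, 4 were lower and 7 did not pass, with a median log2 fold change of -0.08. Of these, 9 average 500 normalized counts or more, 4 of them lower, where 35.1% of all genes of that level were; with the GC offset 3 were higher and 4 lower. The 4 were CCDC115 (-0.50), TMEM199 (-0.33) and VMA21 (-0.08), which act while V0 is put together in the endoplasmic reticulum, and DMXL2 (-0.19), which brings V1 to V0. With the GC offset VMA21 turned to 0.08 (adjusted p = 0.0144) and DMXL2 was at -0.08 (adjusted p = 0.0295). DMXL2 had 4118, 4216 and 4093 normalized counts in GFP replicates 1 to 3, against 3570, 3742 and 3592 in T-MGM replicates 1 to 3, without overlap (SE 0.0310, adjusted p = 6.97e-09).

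Among the membrane and transport proteins, both Niemann-Pick type C genes changed, in opposite directions. NPC2 (ENSG00000119655.10, chromosome 14, 74476192 to 74494177, minus strand), the soluble protein that takes cholesterol from the lysosome's interior, had 2036, 2029 and 1869 normalized counts in GFP replicates 1 to 3, against 2957, 3090 and 3091 in T-MGM replicates 1 to 3. All T-MGM-labelled libraries lay above all GFP libraries, with a log2 fold change of 0.62 (SE 0.0408, adjusted p = 4.92e-51), a fold of 1.54. NPC1 (ENSG00000141458.13, chromosome 18, 23506184 to 23586506, minus strand), the membrane protein that receives this cholesterol, had 2849, 2944 and 2946 normalized counts in GFP replicates 1 to 3, against 2469, 2276 and 2256 in T-MGM replicates 1 to 3. It was lower without overlap, with a log2 fold change of -0.32 (SE 0.0400, adjusted p = 1.23e-14). The TPM of NPC2 over that of NPC1 was 4.19, 3.22 and 3.07 in the GFP controls and 5.66, 6.53 and 5.75 in the T-MGM-labelled libraries, so the groups of this ratio did not overlap.

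NPC1 stood close to its chromosomal neighbours. The 33 genes measured within 10 Mb of it had a median log2 fold change of -0.40, and relative to them NPC1 was at 0.08. For NPC2 the 97 neighbours had a median of 0.14, which left 0.48. Part of NPC1 lies opposite RMC1, and part of NPC2 opposite ISCA2.

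**Figure D3:**
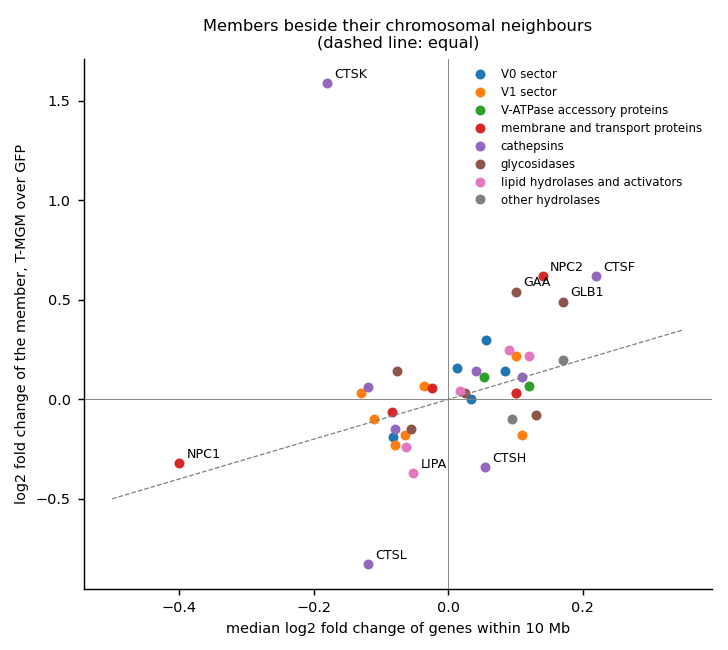
Log2 fold change of each of the 41 members that average 50 normalized counts or more (y axis) against the median log2 fold change of the genes within 10 Mb of it (x axis), coloured by role, with the dashed line where both are equal. NPC1 lies close to the line at -0.32 and -0.40, while CTSK at 1.59 lies above neighbours of median -0.18.

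The lysosomal membrane glycoproteins LAMP1 and LAMP2 and the calcium channel MCOLN1 were close to level. LAMP1 had 5838, 5783 and 5649 normalized counts in GFP replicates 1 to 3, against 5921, 5911 and 6146 in T-MGM replicates 1 to 3 (log2 fold change 0.06, adjusted p = 0.0605). LAMP2 had 6320, 6208 and 6374 normalized counts in GFP replicates 1 to 3, against 5945, 6209 and 5909 in T-MGM replicates 1 to 3, with overlapping groups. Its log2 fold change of -0.07 passed (adjusted p = 0.0297), but not without GFP replicate 1 (-0.06, adjusted p = 0.0935), GFP replicate 3 (-0.06, adjusted p = 0.149), T-MGM replicate 1 (-0.06, adjusted p = 0.137) or T-MGM replicate 3 (-0.05, adjusted p = 0.189), and it was 0.12 with the GC offset (adjusted p = 3.51e-05). MCOLN1 had a log2 fold change of 0.03 with 95% limits of -0.08 and 0.15 (adjusted p = 0.729).

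The cathepsins, the lysosomal proteases, held the largest changes in both directions among the 41 members with at least 50 normalized counts. Of 9 tested, 5 were higher, 3 were lower and 1, CTSZ, did not pass. Of the 5 that average 500 normalized counts or more, 3 were higher and 2 lower, beside 28.4% and 35.1% of genes of that level. With the GC offset 3 cathepsins were higher and 4 lower. CTSK (ENSG00000143387.13, chromosome 1, 150794880 to 150809577, minus strand), a cysteine protease that degrades collagen and elastin, had 94.7, 99.6 and 69.7 normalized counts in GFP replicates 1 to 3, against 259, 238 and 296 in T-MGM replicates 1 to 3. The lowest T-MGM-labelled library was above the highest GFP library by over 2-fold, and the log2 fold change was 1.59 (SE 0.169, 95% limits 1.26 and 1.92, adjusted p = 1.05e-19), a fold of 3.01. Its level was low: it had 1.25 ± 0.122 TPM in the GFP controls, the lowest of the 8 cathepsins with at least 50 normalized counts, and 3.23 ± 0.308 TPM in libraries with the T-MGM label (SD of 3 libraries). Its log2 fold change was 0.91 on the log2(TPM + 1) scale, where the pseudocount weighs on so low a gene. Fibroblasts and osteoclasts are rich sources of CTSK, and the summed fibroblast markers given above, mostly LUM, moved in the same direction. The single markers were mixed. LUM, PDGFRA and COL1A1 passed as higher, while DCN, at few counts, did not pass. COL1A2 had too few counts to be tested and was lower on average with the T-MGM label. The part of these markers in the CTSK result was not tested.

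CTSL (ENSG00000135047.15, chromosome 9, 87724051 to 87731469, plus strand), a cysteine endopeptidase, had 2252, 2344 and 2361 normalized counts in GFP replicates 1 to 3, against 1327, 1256 and 1336 in T-MGM replicates 1 to 3. It was lower without overlap, with a log2 fold change of -0.83 (SE 0.0455, adjusted p = 4.71e-72), a fold of 0.564, and its value with the GC offset was the same. The TPM of CTSL over that of CTSK was 26.9, 27.0 and 32.5 in the GFP controls and 5.72, 5.93 and 5.10 in the T-MGM-labelled libraries. CTSB, the most abundant cathepsin on the TPM scale, was 6.14, 5.71 and 5.75 times CTSL in GFP controls and 11.4, 12.1 and 11.3 times in the others.

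**Figure D4:**
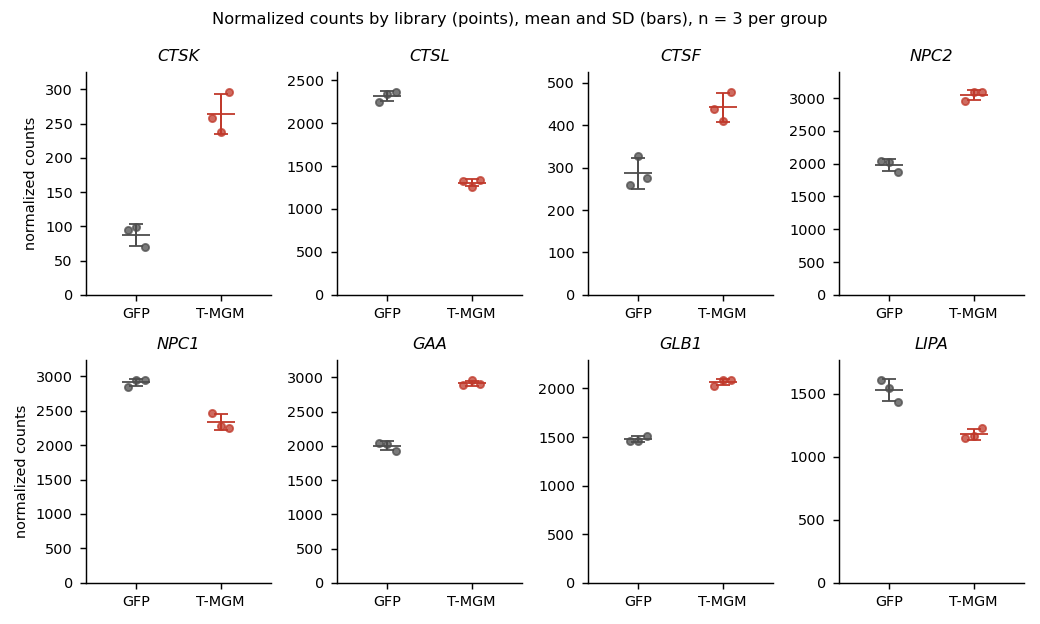
Normalized counts (y axis, from 0) of 8 members in the 3 GFP and 3 T-MGM libraries (x axis), with a point per library and the mean and SD as bars. In none of the 8 panels do the groups overlap: CTSK, CTSF, NPC2, GAA and GLB1 are higher and CTSL, NPC1 and LIPA lower in the T-MGM-labelled libraries.

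CTSF, another cysteine protease, had 258, 328 and 275 normalized counts in GFP replicates 1 to 3, against 439, 409 and 478 in T-MGM replicates 1 to 3, with a log2 fold change of 0.62 (SE 0.113, adjusted p = 2.00e-07). Its level was low, at 3.17 ± 0.406 TPM in GFP and 4.47 ± 0.583 TPM in the T-MGM-labelled libraries (SD of 3 libraries), and neighbours within 10 Mb had a median of 0.22. CTSH, an aminopeptidase, had 349, 325 and 297 normalized counts in GFP replicates 1 to 3, against 239, 279 and 249 in T-MGM replicates 1 to 3 and fell by 0.34 on the log2 scale (SE 0.118, adjusted p = 0.012). That call was lost without GFP replicate 1 (-0.29, adjusted p = 0.0993), GFP replicate 2 (-0.34, adjusted p = 0.0507), T-MGM replicate 1 (-0.30, adjusted p = 0.08) or T-MGM replicate 3 (-0.32, adjusted p = 0.0617).

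The abundant cathepsins changed by small amounts that were nevertheless larger than the spread between libraries. CTSB had 18685, 18149 and 18310 normalized counts in GFP replicates 1 to 3, against 20236, 20457 and 20250 in T-MGM replicates 1 to 3, with a log2 fold change of 0.14 (SE 0.0160, adjusted p = 2.56e-18). In TPM it was level, at 210 ± 0.962 against 208 ± 3.51 (SD of 3 libraries). CTSC, a dipeptidyl peptidase that activates other proteases, fell by 0.15 on the log2 scale (adjusted p = 5.09e-09). CTSD, the aspartic protease, was higher by 0.11 and CTSA, the serine carboxypeptidase that protects NEU1 and GLB1, by 0.06 (adjusted p = 1.05e-06 and 0.00136), and with the GC offset they were at -0.03 and -0.04.

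CTSZ and CTSS were near the limit of detection. CTSZ had 5, 5 and 4 counts in the GFP controls and 3, 2 and 3 in libraries with the T-MGM label, and CTSS had 2, 0 and 1 against 0, 3 and 0. A difference was not detectable for either at this depth, where a gene with 3 counts in a library stands at the limit.

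The glycosidases, which cut sugars from glycogen, glycoproteins and glycolipids, held 3 higher genes of 6, none lower, with a median log2 fold change of 0.09. All 6 average 500 normalized counts or more, where 28.4% of genes were higher and 35.1% lower. With the GC offset 2 were higher and 1, GLA, was lower. GAA (ENSG00000171298.13, chromosome 17, 80101533 to 80119881, plus strand), the acid alpha-glucosidase that degrades glycogen, had 2049, 2034 and 1929 normalized counts in GFP replicates 1 to 3, against 2887, 2960 and 2900 in T-MGM replicates 1 to 3. The groups did not overlap, with a log2 fold change of 0.54 (SE 0.0388, adjusted p = 1.22e-42), a fold of 1.45; the value was 0.39 with the GC offset. GLB1, the beta-galactosidase whose activity is used as a mark of senescent cells, had 1461, 1455 and 1513 normalized counts in GFP replicates 1 to 3, against 2028, 2085 and 2086 in T-MGM replicates 1 to 3, with a log2 fold change of 0.49 (SE 0.0448, adjusted p = 4.84e-26). Relative to genes within 10 Mb, GAA was higher by 0.44 and GLB1 by 0.31.

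GUSB, the beta-glucuronidase, was higher by 0.14 (adjusted p = 0.000581; 0.07 with the GC offset, adjusted p = 0.174). GLA, the alpha-galactosidase, had 915, 989 and 1021 normalized counts in GFP replicates 1 to 3, against 899, 868 and 877 in T-MGM replicates 1 to 3, which did not overlap but did not pass (log2 fold change -0.15, adjusted p = 0.0562; -0.16 with the GC offset, adjusted p = 0.0365). HEXA, the alpha subunit of beta-hexosaminidase, and NEU1, the sialidase, had log2 fold changes of 0.03 and -0.08 with overlapping groups (adjusted p = 0.569 and 0.14). Of the 3 genes whose products form the complex of NEU1, GLB1 and CTSA, GLB1 was higher also with the GC offset, CTSA was higher without it and lower with it, and NEU1 did not pass.

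All 5 genes for lipid breakdown passed, 3 higher and 2 lower, none over 2-fold, where 63.5% of all genes of at least 500 counts passed. The GC offset left 1 higher and 2 lower. ASAH1, the acid ceramidase, had 2356, 2482 and 2458 normalized counts in GFP replicates 1 to 3, against 2906, 2783 and 2805 in T-MGM replicates 1 to 3, with a log2 fold change of 0.22 (SE 0.0376, adjusted p = 3.95e-08), and 0.35 with the GC offset. SMPD1, the acid sphingomyelinase that makes ceramide in the lysosome, had 1596, 1626 and 1371 normalized counts in GFP replicates 1 to 3, against 1793, 1898 and 1764 in T-MGM replicates 1 to 3, with a log2 fold change of 0.25 (SE 0.0561, adjusted p = 5.15e-05); the GC offset left 0.13 (adjusted p = 0.0507). PSAP, the precursor of the saposins that present lipids to these enzymes, was higher by 0.04 (adjusted p = 0.0138), a call that was lost with the GC offset (-0.01, adjusted p = 0.66), without GFP replicate 3 (0.03, adjusted p = 0.126) or T-MGM replicate 3 (0.04, adjusted p = 0.0798).

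LIPA, the lysosomal acid lipase that frees cholesterol from its esters, had 1608, 1545 and 1438 normalized counts in GFP replicates 1 to 3, against 1148, 1162 and 1227 in T-MGM replicates 1 to 3, with a log2 fold change of -0.37 (SE 0.0549, adjusted p = 7.72e-11), and -0.25 with the GC offset. Part of the annotated span of LIPA lies opposite IFIT1, IFIT2 and IFIT3. NPC2 and NPC1 handle the cholesterol that LIPA releases, and of these 3 genes only NPC2 was higher. PPT1 (ENSG00000131238.17, chromosome 1, 40072710 to 40097260, minus strand), which removes fatty acids from proteins, had 6571, 6362 and 6479 normalized counts in GFP replicates 1 to 3, against 5586, 5531 and 5297 in T-MGM replicates 1 to 3. Its groups were apart as well, with a log2 fold change of -0.24 (SE 0.0266, adjusted p = 1.11e-18).

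The remaining hydrolases were TPP1 and ACP2. TPP1 (ENSG00000166340.17, chromosome 11, 6612768 to 6619448, minus strand), a tripeptidyl peptidase that like PPT1 is a gene of neuronal ceroid lipofuscinosis, had 6585, 6684 and 6689 normalized counts in GFP replicates 1 to 3, against 6158, 6311 and 6167 in T-MGM replicates 1 to 3, with a log2 fold change of -0.10 (SE 0.0238, adjusted p = 0.000135). ACP2 (ENSG00000134575.10, chromosome 11, 47239302 to 47248906, minus strand), the acid phosphatase, had 820, 839 and 713 normalized counts in GFP replicates 1 to 3, against 846, 859 and 1007 in T-MGM replicates 1 to 3. Its log2 fold change of 0.20 (SE 0.0795, adjusted p = 0.0382) was 0.09 with the GC offset (adjusted p = 0.409), and it was lost as a call without GFP replicate 3 (0.13, adjusted p = 0.273) or T-MGM replicate 3 (0.11, adjusted p = 0.363). Across all settings ACP2 passed in 7 of 14 fits of the counts and in 0 of 3 fits of TPM.

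Levels of different genes were compared in TPM. ATP6V0C and PSAP led with 362 ± 3.34 and 341 ± 0.738 in the GFP controls, followed by ATP6V1E1 (217 ± 4.26), CTSB (210 ± 0.962), CTSA (175 ± 3.33) and CTSD (132 ± 1.65; SD of 3 libraries). In the T-MGM-labelled libraries, CTSB (208 ± 3.51) was above ATP6V1E1 (173 ± 2.83), which with 171 to 176 TPM was still above CTSA with 165 to 168 TPM. At the lower end, ACP2, CTSH, CTSF and CTSK had 9.38 ± 0.973, 4.32 ± 0.364, 3.17 ± 0.406 and 1.25 ± 0.122 TPM in the GFP controls.

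**Figure D5:**
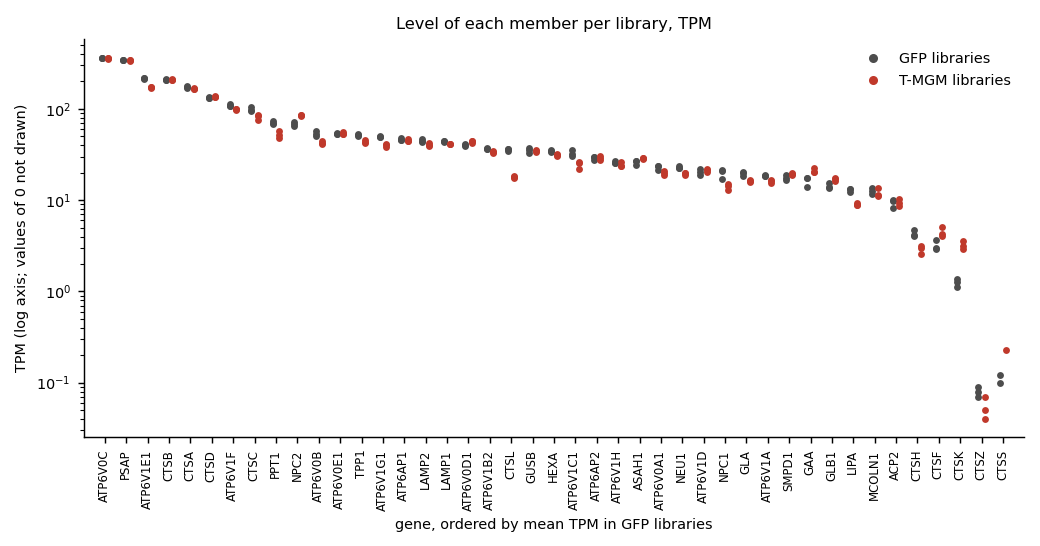
TPM of every member in each library (y axis, log scale), ordered by the mean in the GFP controls (x axis); dark points are GFP and red points T-MGM libraries, and values of 0 are not drawn. Levels run from about 362 TPM for ATP6V0C to under 0.1 for CTSZ and CTSS, and among genes above 1 TPM the groups stand furthest apart for CTSL and CTSK.

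Of 96 other lysosomal genes in 5 lists, 93 were tested: 29 were higher, 19 lower and 45 did not pass, with a median log2 fold change of 0.04 and 2 over 2-fold. Those that average 500 normalized counts or more were 67, with 21 higher and 19 lower, beside 28.4% and 35.1% of genes of that level. Among 34 other hydrolases, 16 were higher and 4 lower (median 0.16; 15 and 3 with the GC offset), and of the 27 that average 500 normalized counts or more, 13 were higher and 4 lower, beside 28.4% and 35.1% of genes of that level. On the log2(TPM + 1) scale, 7 of the 96 genes were higher, where 29 were in the counts. The largest Wald statistic among the higher genes was that of LGMN, the asparaginyl endopeptidase that processes cathepsins, with 1951, 1805 and 1800 normalized counts in GFP replicates 1 to 3, against 2760, 2844 and 2765 in T-MGM replicates 1 to 3 (log2 fold change 0.59, adjusted p = 3.58e-45). HYAL2, a hyaluronidase, had 871, 846 and 950 normalized counts in GFP replicates 1 to 3, against 1293, 1411 and 1257 in T-MGM replicates 1 to 3 (0.57, adjusted p = 5.51e-18). CPVL, a carboxypeptidase, had 1256, 1258 and 1190 normalized counts in GFP replicates 1 to 3, against 884, 907 and 942 in T-MGM replicates 1 to 3, and fell by 0.44 on the log2 scale (adjusted p = 7.83e-13).

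Among 23 other membrane proteins, 9 were higher and 6 lower (median 0.04), and with the GC offset 8 were higher and 4 lower. Of the 15 that average 500 normalized counts or more, 6 were higher and 6 lower, beside 28.4% and 35.1% of genes of that level. LAPTM5, a lysosomal protein best known from blood cells, had 109, 132 and 137 normalized counts in GFP replicates 1 to 3, against 327, 311 and 269 in T-MGM replicates 1 to 3 (log2 fold change 1.26, adjusted p = 1.74e-16). The summed leukocyte markers, mostly FCER1G, moved the other way, and TYROBP was at 0. The leukocyte marker CSF1R, at few counts, had 0, 4.33 and 3.43 normalized counts in GFP against 4.56, 9.76 and 8.86 with T-MGM (DESeq2 adjusted p = 0.251). The part of these markers in the LAPTM5 result was not tested. SIDT2 had 685, 747 and 666 normalized counts in GFP replicates 1 to 3, against 1035, 1081 and 1071 in T-MGM replicates 1 to 3 (0.60, adjusted p = 2.07e-18). OSTM1, the partner of the chloride transporter CLCN7, had 4933, 4780 and 4680 normalized counts in GFP replicates 1 to 3, against 3996, 4102 and 4181 in T-MGM replicates 1 to 3, and was at -0.23 (adjusted p = 2.78e-13), but at -0.06 with the GC offset (adjusted p = 0.116). Among 15 genes for sorting to lysosomes, 2 were higher (GGA1, 0.22, and AP1M1, 0.18) and 4 lower (VPS26A, -0.21, GNPTAB, -0.12, IGF2R, -0.11, and M6PR, -0.10), with both mannose 6-phosphate receptors, IGF2R and M6PR, among the latter. Of the 14 that average 500 normalized counts or more, 2 were higher and 4 lower, beside 28.4% and 35.1% of genes of that level. With the GC offset the sorting genes held 6 higher and 2 lower, and VPS26A (-0.07), GNPTAB (-0.05) and M6PR (-0.06) did not pass (adjusted p = 0.152, 0.128 and 0.137).

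Some of these calls held more widely than others. Across 14 fits of the counts (other tools, scalings and filters, the GC offset, the block on replicate number and each library left out), 19 members passed in the same direction every time. Across these and 3 fits of TPM, 12 did so: CTSK and NPC2 were higher, and CTSL, CTSC, NPC1, LIPA, PPT1, TPP1, ATP6V0B, ATP6V1C1, ATP6V1E1 and ATP6V1G1 were lower. The same counts were not made over all genes, so 19 and 12 have no background here. In the main test alone, 63.5% of all genes of at least 500 counts passed. The median gene was itself lower in TPM, and the part of this in the 12 calls was not tested. With total-count scaling, 14 of the 18 higher and all 13 lower members kept their call, and in TPM 6 of 18 and 13 of 13 did with a pseudocount of 1.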

How the data were processed

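The authors trimmed the reads with cutadapt 1.8.1 and aligned them with STAR 2.7.7a to GRCh38, and per the study's methods featureCounts counted uniquely aligned reads, giving the deposited table of raw counts per gene, the unit of the main test. A deposited table of TPM (length-corrected transcript abundance), which the authors estimated with RSEM 1.3.0, was used for levels compared between genes and as an alternative. The annotation release is not given in the sources used here; gene positions are from GENCODE v44, in which 99.4% of the identifiers were found. Of the library kits, the labels name a non-stranded one and the methods a strand-specific one. The submitters' processing notes also name DESeq2, without a version, and 0 sample columns were left out.

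T-MGM was compared with GFP (3 libraries each, groups and numbers from the sample titles) by the DESeq2 1.42.0 Wald test in R 4.3.3, 2-sided, with Benjamini-Hochberg adjustment over all genes, at an adjusted p of 0.05; over 2-fold also needed an absolute log2 fold change above 1. Normalized counts are counts divided by DESeq2 size factors. Alternatives were edgeR 4.0.16 (quasi-likelihood, TMM), TMM and total-count scaling, a filter of 10 counts in 3 libraries, no independent filtering, a replicate block, each library left out, lowess offsets (span 0.3) for GC content and length of transcripts, limma 3.58.1 on log2(TPM + 1) and log2(TPM + 0.1), and subtraction of the median of genes within 10 Mb. Scripts were tested on simulated data. Depth was 35057239 to 59250663 counts per library, and the floor of 3 counts covers counting error only.

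The members and lists were chosen with earlier results of these data known. Every member is named. Per-library values are given for members over 2-fold, and per list for the passing member with the highest and that with the lowest Wald statistic. From the other lists the genes named are those over 2-fold and the 3 passing genes per direction with the largest Wald statistic at a mean of at least 100 normalized counts; further members were given per-library values, and further genes of these lists and markers were named, after their values were seen.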

Additional observations from a re-analysis of the deposited data

How the results depend on the processing

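The alternatives that use TPM changed the counts of calls most. All genes passing went from 7350 to 4295 on log2(TPM + 1) without a filter on low values, and those over 2-fold from 885 to 133 on log2(TPM + 1), 369 on log2(TPM + 0.1) and 126 without the filter. Higher members went from 18 to 6, 6 and 2 in these 3 fits, and lower members from 13 to 20 in each of the first 2. Members over 2-fold went from 1 to 0 with a pseudocount of 1, with or without the filter, since the pseudocount understates the change of CTSK. Other lysosomal genes that were higher went from 29 to 7, 7 and 5. Genes with at least 50 normalized counts had a median change of -0.01 (log2) in the main test and -0.13, -0.15 and -0.13 in these fits.

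Leaving out 1 library at a time gave 6461 to 6623 genes passing, 765 to 810 over 2-fold, 15 to 19 members higher, 11 to 12 lower and 1 over 2-fold, and 25 to 28 other lysosomal genes higher and 13 to 18 lower. Labels number the replicates alike, but the deviations of libraries with the same number had correlations of -0.00665, -0.0579 and 0.0291, so the numbers did not pair the libraries. With a replicate block 6099 genes passed, 735 over 2-fold, with 16 members higher and 11 lower, and ATP6V0A1 was at -0.0017. The block ended the calls of CTSH (adjusted p = 0.0679), LAMP2 (0.127), PSAP (0.066) and ACP2 (0.138).

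Small changes turned their sign. In the 2 filtered TPM fits (pseudocount 1, then 0.1) the log2 fold change was -0.0039 and -0.0041 for ATP6AP2, -0.013 for ATP6V0C and PSAP, -0.014 for CTSB, -0.031 for GUSB, -0.047 and -0.048 for ATP6AP1, -0.067 for CTSA, -0.071 and -0.076 for MCOLN1, -0.076 and -0.079 for ATP6V1H, -0.090 and -0.092 for LAMP1, -0.12 for ATP6V1B2, -0.12 and -0.13 for ATP6V1F, -0.14 for HEXA, and -0.20 and -0.21 for ATP6V0A1; without the filter the values were those of pseudocount 1. With GC and length offsets it was -0.0025 for ATP6AP1, -0.0065 for LAMP1, -0.0094 for PSAP, -0.015 for ATP6V0A1, -0.031 for CTSD, -0.039 for ATP6V0C, -0.042 for CTSA, -0.094 for ATP6V1F, -0.10 for MCOLN1, 0.022 for ATP6V1A and 0.12 for LAMP2. With total-count scaling it was -0.013 for PSAP, -0.020 for ATP6V1B2 and MCOLN1, -0.021 for HEXA, -0.024 for ATP6V1F and -0.053 for ATP6V0A1. Relative to genes within 10 Mb it was 0.010 for ATP6V1A, 0.018 for LAMP2 and 0.079 for NPC1, which had passed, and -0.069 for ATP6V1B2, -0.051 for ATP6AP2 and -0.062 for MCOLN1, which had not. ATP6V0A1 was at -0.0014 with the filter of 10 counts. With 1 library left out it ranged from -0.033 (without T-MGM replicate 3; -0.0079 without GFP replicate 1) to 0.025, and MCOLN1 from -0.0086 (without T-MGM replicate 2) to 0.058. The cause of these shifts was not tested.

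With 3 libraries a group in 1 cell line, and with CTSS and CTSZ at 5 counts or fewer per library, the data limit what can be said of rare members; protein, enzyme activity and pH were not measured here.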
